A study of Macaca mulatta with 2 samples.

Results

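The Notch pathway was followed through 36 genes in cultured Sertoli cells of the rhesus monkey (Macaca mulatta). The genes were taken by name from the arrays' gene annotation, 36 of 21495 gene names in all, and cover 5 ligands, 4 receptors, 5 proteins of receptor processing, 8 modifiers, 4 proteins of the nuclear complex and 10 targets. Sertoli cells line the seminiferous tubule and enclose and feed the germ cells. The infant group is 1 array of RNA from a primary Sertoli cell culture made from testes of males under 3 months old. The pubertal group is 1 array of RNA from such a culture of males aged 18 to 22 months. These males had been brought into puberty early with gonadotropin-releasing hormone (GnRH), delivered by catheter at 0.15 µg/min for 2 min with 3 h between pulses over 4 to 5 weeks. Both cultures had been kept with testosterone (100 nM) and with follicle-stimulating hormone (FSH, 5 ng/ml) during 12 h before RNA was taken, so no culture without hormone is compared here. The sources used here do not give the number of animals behind each culture. With 1 array per group no difference below has a replicate check or a test, and age, animal, culture and GnRH treatment cannot be told apart.

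Notch signalling passes between touching cells. A ligand of the Jagged or Delta-like family on one cell binds a Notch receptor on its neighbour, an ADAM protease and then the gamma-secretase complex cut the receptor, and the freed intracellular part enters the nucleus, where it joins the DNA-binding protein RBPJ and a Mastermind coactivator to switch on targets such as the HES and HEY repressors. Fringe glycosyltransferases modify the receptor and tune which ligands activate it. In the mouse testis Notch is active in Sertoli cells, and ligand presented by germ cells is one of its sources.

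Values are log2 signals of a one-colour array relative to the 75th percentile of that array's gene spots, which was 406.7 intensity units in the pubertal and 382.4 in the infant culture. A difference is the pubertal minus the infant value, so that 1 is 2-fold. The ± value is the error estimate of the scanner software for that difference. It covers the array signal and neither the scaling between arrays nor the culture, and its median over the genes was 0.20. For a gene with several probes the errors of the probes were combined as if the probes were independent. The ± value of such a gene leaves out disagreement between probes and is too small where probes overlap. For DTX1 and LFNG the SD between probes was 1.34 and 0.82. A gene counts as measured on both arrays where at least 1 of its probes was well above background on both, and it takes the mean of such probes. The probes are human sequences, and macaque transcripts bind each to an unknown degree, so levels of different genes or probes are not set against each other. Of 51538 gene spots, 54.9% in the pubertal and 54.8% in the infant culture were well above background, and 0 were saturated. Over the 14243 genes measured on both arrays the median difference was -0.06. Scaling on spike-in probes in place of the 75th percentile moved that median by 1.05 and scaling on the array median by -0.16. A difference between -1.05 and 0 below therefore turns positive on the spike-in scale, and calls of lower signal are relative to the other genes of the array.

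All 11 Sertoli cell markers were above background on both arrays, with a summed signal of 59938 units in the pubertal and 45667 in the infant culture over 15 probes. Such a sum adds signals of unlike probes that are not scaled between the arrays, so the brightest genes of a list rule it. The transcription factor gene SOX9 differed by 0.42, AMH (anti-Müllerian hormone) by 3.28 and DMRT1 by 2.11. WT1 was at 0.10, and the 2 Sertoli markers below 0 were INHA at -0.52 and GATA4 at -0.13. Markers of other testis cells differed as well. The 10 germ cell markers summed to 14366 units in the pubertal and 6681 in the infant culture. Of the 5 measured on both, 4 were at least 2-fold higher in the pubertal culture (DAZL by 4.72 and STK31 by 4.71). The other was UTF1, at 0.24, whose 3 probes hold most of the infant sum. On the infant array the level of UTF1 was 1.88, and those of the other 4 ran from -3.58 to -2.04. A further 4 were above background on the pubertal array only, among them DDX4 with a signal at least 13.2-fold higher there. The 6 peritubular myoid and smooth muscle markers summed to 142337 against 77927 units, with 4 of 6 at least 2-fold higher in the pubertal culture (ACTA2 by 3.46, ACTG2 by 3.10 and MYH11 by 2.24). CNN1, whose 3 probes hold most of both sums, differed by 0.62. The 6 macrophage markers summed to 1901 against 371 units, with 3 of 5 at least 2-fold higher (CD163 by 3.09 and CSF1R by 2.07, against -0.94 for CD68). The 8 endothelial markers summed to 1045 against 416 units, with PECAM1 higher by 1.43 and VWF by 0.99 on the pubertal array. The other 2 measured on both were ESAM at 0.26 and ERG at -0.10. TEK was above background on the pubertal array only, and CDH5, KDR and TIE1 were not above background on either array. The 6 Leydig cell and steroidogenic markers went the other way, with 18917 against 57787 units and 3 of 5 at least 2-fold lower in the pubertal culture (STAR at -4.24 and CYP17A1 at -4.21, against 0.41 for INSL3), and LHCGR not above background on either array. The 6 fibroblast and pericyte markers were mixed at 28351 against 25710 units, with RGS5 at 2.23, DCN at -1.49 and PDGFRA at -0.53. LUM of this list was above background on the pubertal array only, at least 6.73-fold higher there. In RNA from a whole culture, a different share of a cell type and a different RNA amount per cell cannot be told apart.

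**Figure D1:**
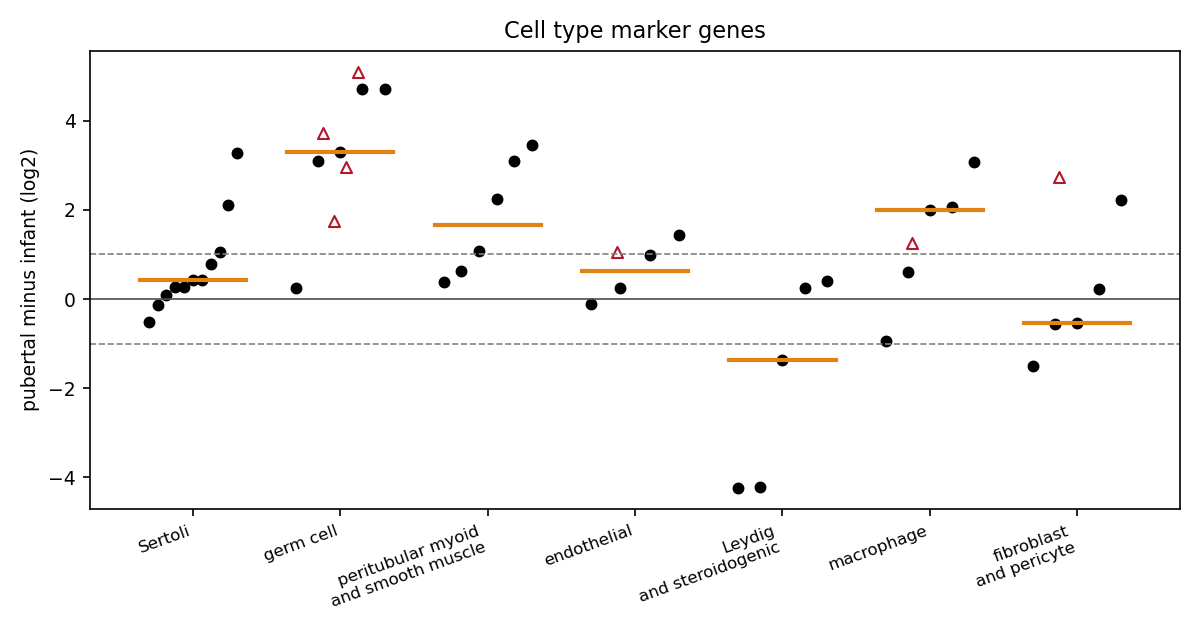
Difference between the arrays (pubertal minus infant, log2) of each cell type marker, by list. Black points are genes measured on both arrays, open triangles are lower bounds for genes above background on the pubertal array only, orange lines are medians of the genes measured on both and dashed lines mark 2-fold. The medians run from 3.31 for germ cell markers to -1.37 for Leydig cell and steroidogenic markers, with 0.42 for Sertoli cell markers.

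Of the 36 Notch genes, 29 were measured on both arrays, 2 were above background on the pubertal array only, 0 on the infant array only (3.13% of all gene names) and 5 on neither. The 2 found on the pubertal array only were the targets HES5 and HEY1, where 4.21% of all gene names had that status. The ligand DLL4, the receptor NOTCH1, the target HES2, the coactivator MAML3 and the modifier DTX4 had no signal well above background on the 2 arrays. At least 2-fold higher signal on the pubertal array was seen for 4 of the 29 (13.8%), namely the ligands JAG2 and DLL1, the target HEY2 and the modifier DTX1, beside 7.32% of all genes measured on both arrays. At least 2-fold lower signal was seen for 3 of the 29 (10.3%), namely the receptor NOTCH3, the protease ADAM10 and the fringe enzyme MFNG, beside 6.32% of all genes. The other 22 were within 2-fold. The median of the 29 was 0.01, with 15 differences above 0 and 14 below, against the median of -0.06 over all genes. With 29 genes each share rests on 3 or 4 of them, and nothing particular to the pathway is drawn from these shares.

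**Figure D2:**
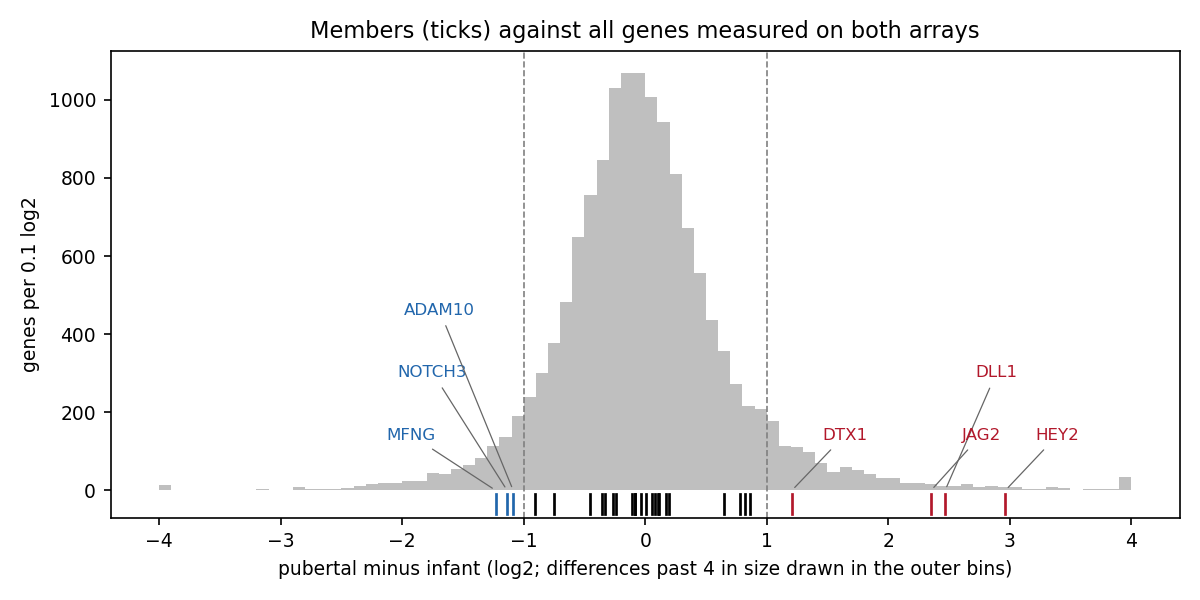
Histogram of the difference (pubertal minus infant, log2) over the 14243 genes measured on both arrays, in steps of 0.1, with the 29 Notch genes as ticks under it and dashed lines at 2-fold. Most ticks lie near the centre, HEY2, DLL1 and JAG2 lie far to the right at 2.96, 2.47 and 2.35, and the 3 genes on the left lie just past the 2-fold line.

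**Figure D3:**
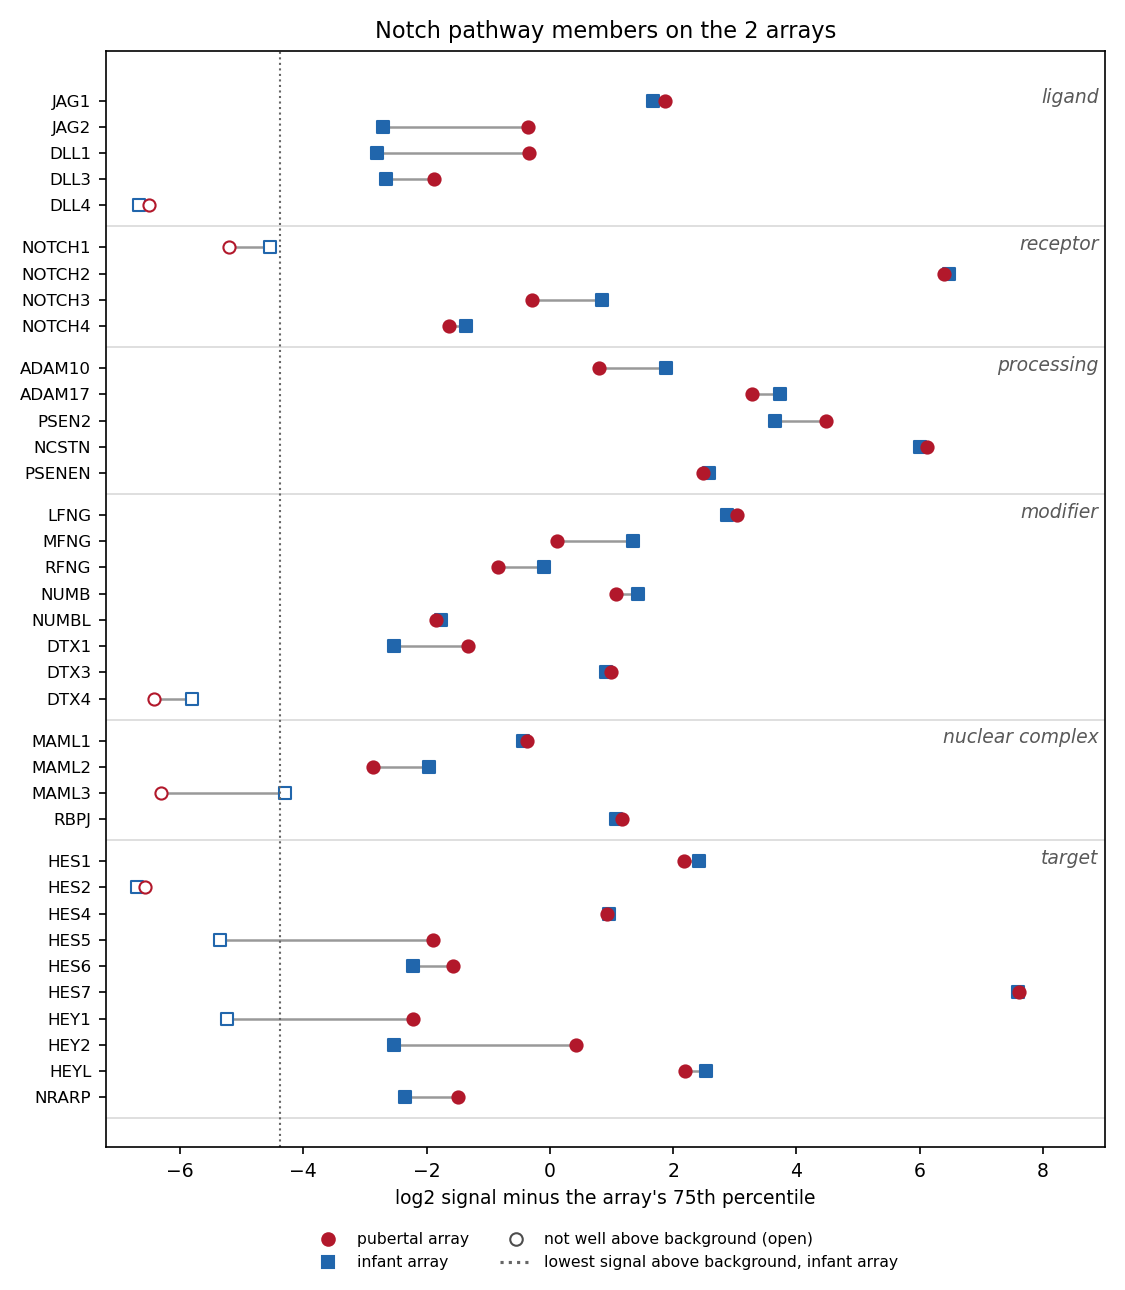
Level of each of the 36 genes (log2 signal minus the array's 75th percentile) on the pubertal array (red circles) and the infant array (blue squares), ordered by role, with open symbols where the signal was not well above background. Levels are comparable within a row only. JAG2, DLL1, DTX1 and HEY2 lie to the right on the pubertal array, NOTCH3, ADAM10 and MFNG to the right on the infant array, and HES5 and HEY1 are filled on the pubertal array only.

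Of the 6 roles the ligands had the highest median difference, at 1.57. All 4 measured ligands had a difference above 0, as had 6522 of all 14243 genes, and JAG1 lay inside the scanner error. DLL1, a Delta-like ligand, had 3 probes. The first gave 331 units in the pubertal and 55.4 in the infant culture, the second 287 and 44.4, and the third 351 and 66.6. All 3 probes were brighter on the pubertal array, by 2.49, 2.60 and 2.31 on the log2 scale. Their mean difference was 2.47 ± 0.14, or 5.53-fold. The last 2 of these probes are not separate measurements of the transcript, because 27 bases at the start of one are held by the other, as the deposited probe sequences show. This shared run is printed since it limits the DLL1 evidence to 1 independent probe beside the pair.
DLL1: actgcctttattgtcctttttgatacg
JAG2, a Jagged ligand, had 1 probe, which read 318 units in the pubertal and 58.5 in the infant culture. The difference was 2.35 ± 0.25, or 5.11-fold, and no other JAG2 probe stands beside it. The last 30 of the probe's 60 bases are printed as the identity of the only JAG2 probe.
JAG2: acagaatcttccttttattcctcactcggg
JAG1, the other Jagged ligand, read 1478 and 1216 units and differed by 0.19 ± 0.20, no more than the scanner error. DLL3, a ligand-like protein that is known to act inside the cell and to restrain the receptor, read 111 and 60.5 units on 1 probe, a difference of 0.78 ± 0.23. Its other probe, assigned to another transcript, was not above background on either array, at 4.47 and 3.85 units. DLL4, the ligand best known from blood vessels, was likewise near the floor at 4.51 and 3.77 units. For DLL4 and for this DLL3 probe the values on both arrays are flagged as surrogates, which the extraction software put in place of the measured signal.

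The separation of JAG2 and DLL1 from JAG1 held under the processing alternatives. JAG2 and JAG1 have 1 probe each, so only the scalings, normalizations and background correction could move them. Over the alternatives that leave out the spike-in scale, DLL1 ranged from 1.57 to 2.55 and JAG2 from 1.35 to 2.43, the lowest values of both coming with another background correction (normexp). JAG1 ranged from 0.03 to 0.27 over the same alternatives, and it reached 1.24 on the spike-in scale, where JAG2 was at 3.40 and DLL1 at 3.52. On the same 2 arrays the summed germ cell markers stood at 14366 against 6681 units, the smooth muscle markers at 142337 against 77927, the macrophage markers at 1901 against 371 and the endothelial markers at 1045 against 416. The median differences of these lists were 3.31, 1.65, 1.99 and 0.62 on the log2 scale. Their part in the ligand differences was not tested.

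**Figure D4:**
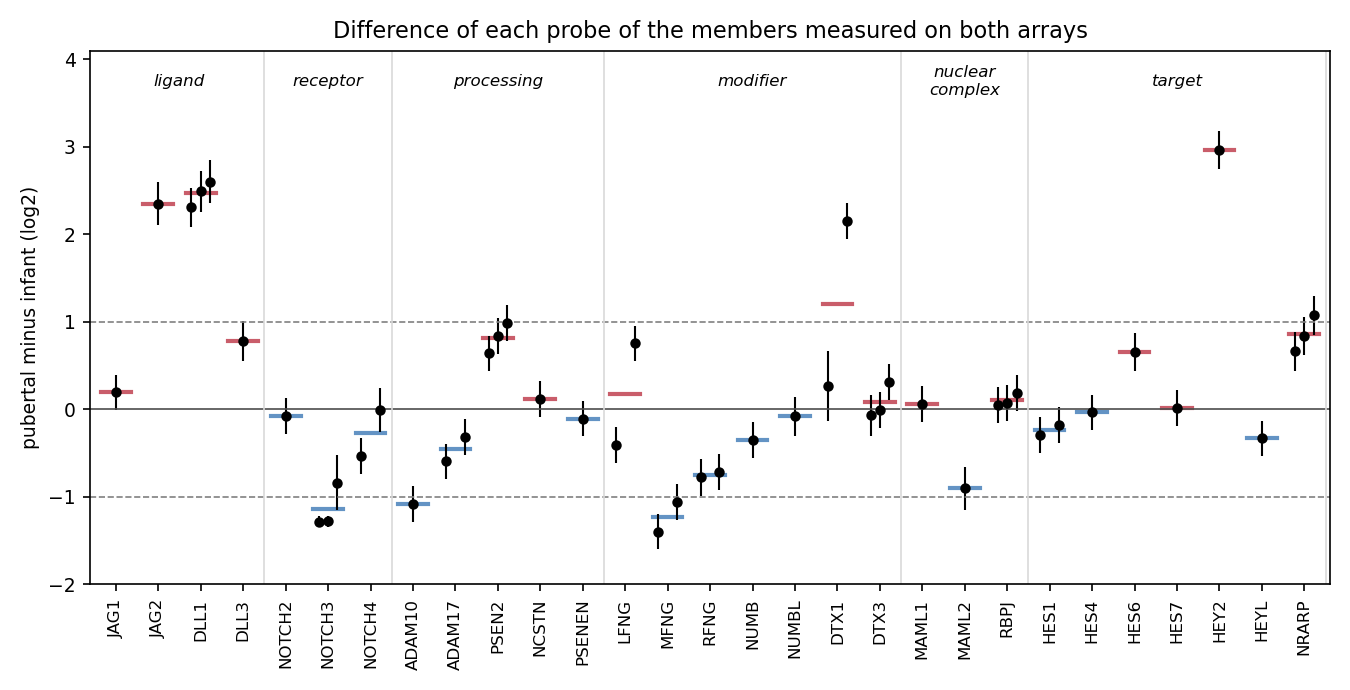
Difference between the arrays (pubertal minus infant, log2) of every probe above background on both arrays, for the 29 genes measured on both, in order of role. Points are probes, vertical bars are the scanner error, short coloured lines are the gene's mean and dashed lines mark 2-fold. The 3 probes of DLL1 lie together between 2.31 and 2.60, while the 2 probes of DTX1 lie apart at 0.26 and 2.15.

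The 3 measured receptors had differences below 0 at the main scaling, as had 7721 of all 14243 genes, and NOTCH2 lay inside the scanner error. On the spike-in scale NOTCH2 and NOTCH4 were above 0 and NOTCH3 was at -0.09, and NOTCH2 was above 0 with quantile (0.22) and loess normalization as well. NOTCH3, a receptor known from smooth muscle cells and pericytes, is the most densely measured of the 36 genes, because 2 of its probes were printed in many copies. The first of these probes gave between 1004 and 1150 units over 11 spots of the pubertal array (median 1091) and between 2413 and 2620 units over 10 spots of the infant array (median 2483), where 1 outlier spot was left out. The second gave 1019 to 1348 units over 11 pubertal spots (median 1058) and 2353 to 2930 over 10 infant spots (median 2440), again with 1 outlier left out. For both probes the spots of the 2 arrays did not overlap, and the differences were -1.29 and -1.28. These spots are repeated readings of the same 2 RNA samples on 1 array each. They describe the scatter between spots and not the error of the array, of the scaling or of the animals.

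The 2 probes share 59 of their 60 bases and amount to the same sequence, shifted by 1 base. Another probe, from a different stretch of the transcript, read 31.5 units in the pubertal and 53.0 in the infant culture, a difference of -0.84. The last 30 bases of the repeated probe and the whole of the other probe are printed to show that they read different stretches.
NOTCH3, repeated probe: tagctgaattcccaagccctgcattgtaca
NOTCH3, single-spot probe: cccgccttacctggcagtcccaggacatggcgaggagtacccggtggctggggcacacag
The mean over the 3 probes was -1.14 ± 0.11, or 2.20-fold lower in the pubertal culture, and with the overlapping pair counted once it was -1.06. NOTCH3 passed 2-fold by a small margin and did not pass it with normexp (-0.95). The smooth muscle markers ACTA2 and MYH11 were higher in the pubertal culture by 3.46 and 2.24, and RGS5 of the fibroblast and pericyte list by 2.23, in the direction opposite to NOTCH3. COL1A1 of the same list was at 0.22, and LUM was above background on the pubertal array only, at least 6.73-fold higher there. These 2 were opposite to NOTCH3 as well. PDGFRB of the same list was at -0.55, PDGFRA at -0.53 and DCN at -1.49, in the direction of NOTCH3. Their part in the NOTCH3 difference was not tested.

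NOTCH2 read 33988 units in the pubertal and 33804 in the infant culture and differed by -0.08 ± 0.20. NOTCH4, an endothelial receptor in most tissues, differed by -0.27 ± 0.16. Its probes disagreed somewhat, at -0.53 (291 and 395 units) and -0.0043 (59.6 and 56.2 units). NOTCH1, the receptor studied most in the mouse Sertoli cell, was not well above background at 11.1 and 16.5 units, against a lowest signal above background of 20.8 units in the pubertal and 18.5 in the infant culture. How well macaque NOTCH1 binds this human probe was not tested, and no level is drawn from it.

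Among the processing proteins, ADAM10 was the only one past 2-fold. ADAM10, the protease that makes the ligand-dependent cut in the receptor, read 709 units in the pubertal and 1416 in the infant culture on its 1 probe. The difference was -1.09 ± 0.20, or 2.12-fold lower in the pubertal culture, and on the spike-in scale it was -0.04. Its probe ends as follows.
ADAM10: gtatttcttacgtacactgtacttctgtgt
ADAM17, a related protease that cuts many membrane proteins, differed by -0.46 ± 0.14, with 2 probes at -0.60 and -0.31 and the value at 0.59 on the spike-in scale. The remaining ADAM17 probe was not above background, at 14.2 and 8.87 units. The gamma-secretase subunits were all within 2-fold at the main scaling. PSEN2, a catalytic subunit, was higher in the pubertal culture on all 3 of its probes, by 0.98, 0.84 and 0.64. Its mean of 0.82 ± 0.12 stayed under 2-fold at the main scaling and was 1.87 on the spike-in scale. NCSTN, the subunit that receives the substrate, differed by 0.12 ± 0.20 and PSENEN, a subunit needed for the activity of the complex, by -0.11 ± 0.20. Both values lie inside the scanner error.

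Of the 3 fringe enzymes, MFNG differed by at least 2-fold, RFNG was lower in the pubertal culture by less than that, and LFNG gave opposite answers on its 2 probes. MFNG read 1063 units in the pubertal and 2637 in the infant culture on one probe and 184 and 360 on the other. Both probes were dimmer on the pubertal array, by -1.40 and -1.06, and the mean was -1.23 ± 0.15, or 2.35-fold lower. On the spike-in scale MFNG was at -0.18. The Leydig cell and steroidogenic markers summed to 18917 units pubertal and 57787 infant, with STAR, CYP17A1 and CYP11A1 at least 2-fold lower in the pubertal culture, at -4.24, -4.21 and -1.37. The other 2 measured, INSL3 and HSD3B2, were at 0.41 and 0.25. The medians of the other lists ran from -0.53 for fibroblast and pericyte markers to 3.31 for germ cell markers, with 0.42 for Sertoli cell markers. The part of any of these lists in the differences of MFNG and ADAM10 was not tested. RFNG had 2 probes at -0.72 and -0.78, a mean of -0.75 ± 0.15, which was 0.30 on the spike-in scale. LFNG read 1544 and 862 units on one probe, a difference of 0.75, and 7267 and 9093 units on the other, a difference of -0.41. The array design assigns these probes to different LFNG transcripts, so the mean of 0.17 ± 0.14 describes neither.

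DTX1, a Deltex ubiquitin ligase that acts on the receptor and is also a Notch target in lymphocytes, had a mean difference of 1.21 ± 0.22, or 2.31-fold, made of unlike probes. One probe read 907 units in the pubertal and 192 in the infant culture, a difference of 2.15. The other read 29.2 and 22.9 units, close to the lowest signal above background, and differed by 0.26 ± 0.40. The call therefore rests on the first probe, and with normexp the mean was 0.96. The end of the first probe and the whole of the second are given to let the 2 stretches be located.
DTX1, bright probe: tctgacttcaggagcgaaaggaggaggcct
DTX1, dim probe: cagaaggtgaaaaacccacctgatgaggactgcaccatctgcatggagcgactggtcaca
DTX3 gave 0.31, -0.0045 and -0.07 on 3 probes, a mean of 0.08 ± 0.12. DTX4 was not well above background, at 4.77 and 6.81 units. The Notch inhibitor NUMB, which sends the receptor into endocytosis, differed by -0.35 ± 0.20 and its relative NUMBL by -0.08 ± 0.22, both above 0 on the spike-in scale.

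Of the nuclear complex, RBPJ and MAML1 differed by less than the scanner error and MAML2 by more. RBPJ, the DNA-binding partner of every Notch receptor, read 885 and 806 units, 1920 and 1714 units, and 456 and 376 units on its 3 probes. These probes differed by 0.05, 0.07 and 0.19, a mean of 0.10 ± 0.12. The Mastermind coactivator MAML1 differed by 0.06 ± 0.21 at 313 and 283 units. MAML2 was at 55.7 and 98.0 units, a difference of -0.90 ± 0.24, under 2-fold at the main scaling but past it when scaled on the array median (-1.06) and with quantile normalization (-1.02), and 0.14 on the spike-in scale. MAML3, at 5.17 and 19.5 units, carried the flag for well above background on neither array. Without that filter it was at -2.004.

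The differences of the 7 targets measured on both arrays ranged from -0.33 to 2.96, and 2 more targets were above background on the pubertal array only. HEY2, a hairy-related repressor, had the largest difference of the 29 genes. Its brighter probe read 548 units in the pubertal and 66.0 in the infant culture, a difference of 2.96 ± 0.22, or 7.80-fold. A second HEY2 probe was above background on the pubertal array only, at 28.7 and 16.3 units, and when both probes were averaged without a filter HEY2 was at 1.85. HES5, a HES repressor known from the nervous system as one of the most direct Notch readouts, read 110 units in the pubertal culture and 9.39 in the infant one, where it was not well above background. Its signal was at least 5.58-fold higher in the pubertal culture, where the bound compares it with the lowest signal above background of the infant array. HEY1, a close relative of HEY2, read 87.6 units in the pubertal and 10.1 in the infant culture, again not well above background there, and was at least 4.45-fold higher. All 3 of these genes were on the same side, and each rests on 1 probe. With normexp the bounds shrank to 1.09 for HES5 and 0.91 for HEY1 on the log2 scale, and HEY2 to 2.16. Beside them, the summed endothelial markers stood at 1045 against 416 units, the smooth muscle markers at 142337 against 77927, the macrophage markers at 1901 against 371 and the germ cell markers at 14366 against 6681. In the same order the median differences of these lists were 0.62, 1.65, 1.99 and 3.31 on the log2 scale. The Sertoli cell markers had a median of 0.42, with 3 of 11 at least 2-fold higher and 0 lower. The medians of the fibroblast and pericyte list and of the Leydig cell and steroidogenic list were -0.53 and -1.37. The part of any of these lists in the target differences was not tested.

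The probes of HEY2 and HES5 end as follows, with capitals marking the polyadenylation signal AATAAA where it occurs.
HEY2: gatcccaaaacaagatgaatgtatgcaatg
HES5: agccgccatAATAAAatctgattgttcagc
Of the 59 usable probes of the 36 genes, 7 hold AATAAA on the printed strand (11.9%) and 7 on the opposite strand, beside 4.40% and 3.74% of all 50173 gene probes of the array. Its variant ATTAAA was in 1 of 59 (1.69%) beside 2.73%, with 1 and 2.67% on the opposite strand. This is the MFNG probe. The probes of HEYL, NOTCH4 and MFNG are printed beside HES5 because all 4 hold such a hexamer and differ in opposite directions at the main scaling, with HES5 brighter on the pubertal array and the others dimmer.
HEYL: ggttgttgcggacatccAATAAAgattttt
NOTCH4: ctgtcacccatAATAAAgctgatttgaagt
MFNG: atctggttctgtacaaaaATTAAAtgctta
A match is a description of the letters in the probe. The GC content of the probes ranged from 30% to 80%, with a median of 45.0% against 41.7% over all gene probes of the array.

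HES1, the repressor most often used as a Notch readout, differed by -0.24 ± 0.14. Its 2 probes above background on both arrays read 2374 and 2523 units and 1427 and 1648 units, differences of -0.18 and -0.30. Its remaining probe was above background on the infant array only, at 19.6 and 27.0 units. HEYL, a hairy-related repressor known from smooth muscle cells, read 1866 and 2211 units and differed by -0.33 ± 0.20. HES4 read 769 and 742 units and differed by -0.04 ± 0.20. HES7, a repressor of the segmentation clock, read 79010 and 73757 units and differed by 0.01 ± 0.20. With quantile and loess normalization HES7 was at 0.39 and 0.29. The probes of HES4 and HES7 each have a GC content of 80%. How specifically they bind was not tested, and no level is drawn from them. HES1, HEYL and HES4 turned positive on the spike-in scale. HES6, which is known to counteract HES1, read 137 and 81.9 units and differed by 0.65 ± 0.22. NRARP, a feedback inhibitor that is switched on by Notch and destabilises the receptor's intracellular part, was brighter on the pubertal array on all 3 probes, by 1.07, 0.84 and 0.66. Its mean was 0.86 ± 0.13, or 1.81-fold, short of the 2-fold threshold, and it ranged from 0.50 to 0.94 over the alternatives without the spike-in scale.

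HES and HEY genes encode related helix-loop-helix proteins, so probes were compared between them. The dimmest HES1 probe and the dim HEY2 probe align without gaps over 57 bases, of which 31 are the same (54.4%). Capitals mark the bases that are the same.
HES1: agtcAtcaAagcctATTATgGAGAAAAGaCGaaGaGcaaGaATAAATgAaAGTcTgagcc
HEY2: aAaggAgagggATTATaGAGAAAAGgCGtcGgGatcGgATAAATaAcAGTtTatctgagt
Both probes were dim, at 19.6 and 27.0 units for HES1 and 28.7 and 16.3 for HEY2, and neither enters the values of HES1 and HEY2 at the main setting. No probe of the 36 genes shared a run of 20 or more bases with a probe of another gene on the array. Outside the NOTCH3 pair and the DLL1 pair, probes of the same gene also shared no such run.

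Over the 13 genes with several probes above background on both arrays, the median SD between probes was 0.21, and LFNG and DTX3 were the 2 with probes of opposite sign. Of the 7 genes past 2-fold, DLL1, NOTCH3, MFNG and DTX1 had several such probes. The probes of DLL1 and MFNG were all past 2-fold, the single-spot NOTCH3 probe and the dim DTX1 probe were not, and JAG2, ADAM10 and HEY2 stood on 1 probe each.

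Which genes passed 2-fold depended on the processing. JAG2, DLL1 and HEY2 were at least 2-fold higher under all 12 alternatives that give gene values, and DTX1 under 11 of them, the exception being normexp. MFNG and ADAM10 were at least 2-fold lower under 11, the exception being the spike-in scale, and NOTCH3 under 10, the exceptions being normexp and the spike-in scale. These counts include alternatives that could not move a gene. JAG2 and ADAM10 have 1 probe each, so the other filters, the probe rules and the counting of overlapping probes left them unchanged. HEY2, with 1 probe above background on both arrays, could not change under the probe rules either. On the spike-in scale 16 of the 29 genes were at least 2-fold higher and 0 lower, where 7038 of all 14243 genes were higher and 113 lower.

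**Figure D5:**
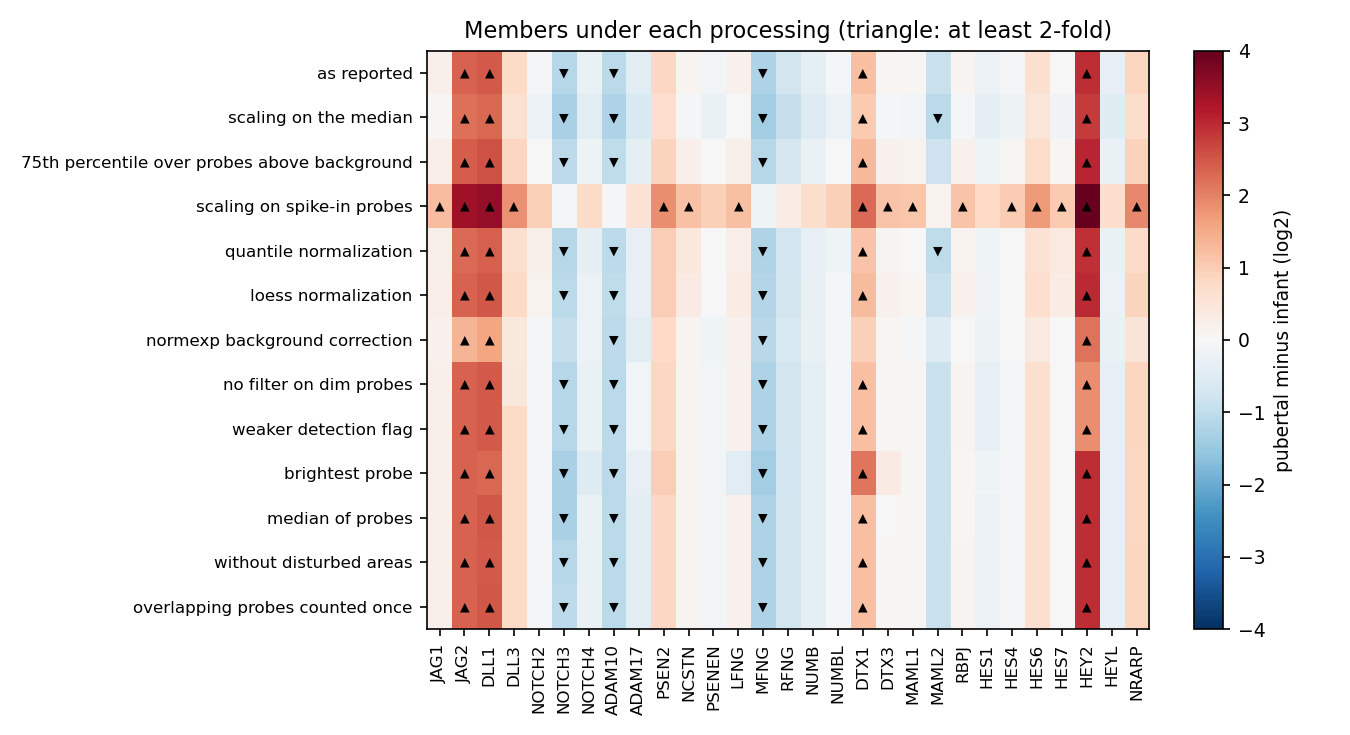
Difference (pubertal minus infant, log2, colour scale from -4 to 4) of the 29 genes measured on both arrays under the reported processing and the 12 alternatives, with triangles at 2-fold or more. The columns of JAG2, DLL1 and HEY2 hold an upward triangle in every row, and the row of scaling on spike-in probes is the only one in which no triangle points down.

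Beyond the 36 genes, 40 of 48 further names of the pathway were on the array under those names, and 35 were measured on both arrays. Of these 35, 3 were at least 2-fold higher in the pubertal culture (8.57%) and 2 at least 2-fold lower (5.71%), beside 7.32% and 6.32% of all genes, and their median was 0.05. TLE4, a Groucho corepressor that HES proteins recruit, was higher by 2.22 ± 0.21 (4.66-fold) on 1 of its 2 probes. DNER, a transmembrane protein with Delta-like repeats that is described as a Notch ligand, was higher by 2.12 ± 0.35 (4.34-fold), from a level near the floor of the infant array. With normexp DNER was at 0.93. NEURL, a ubiquitin ligase that promotes ligand endocytosis, was higher by 1.07 ± 0.14 (2.10-fold) and at 0.91 when scaled on the array median. SEL1L, a part of the machinery that degrades misfolded proteins, was at -1.13 ± 0.23 and NEDD4, a ubiquitin ligase, at -1.07 ± 0.21, each on 1 of 2 probes. With no filter SEL1L was at -0.49 and NEDD4 at -0.13, with normexp at -0.70 and -0.93, and on the spike-in scale at -0.08 and -0.02. NEDD4 was also under 2-fold with the 75th percentile over probes above background (-0.99).

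The other genes of the further list given here were within 2-fold. The gamma-secretase subunits APH1A and APH1B differed by -0.02 and -0.27, beside 0.82 for PSEN2. The ligand-activating ligases MIB1 and MIB2 differed by -0.17 and 0.60, the glycosyltransferases POFUT1 and KTELC1, which prime the receptor for ligand binding, by -0.26 and -0.79, and FURIN, which makes the first cut during receptor maturation, by -0.60. FBXW7, which marks the receptor's intracellular part for degradation, differed by 0.69. The corepressor gene NCOR1 differed by -0.61 and the Groucho genes TLE1, TLE2 and TLE3 by 0.05, 0.18 and 0.11, against 2.22 for TLE4. The ligand-like gene DLK1 differed by 0.56. On the spike-in scale the genes of this paragraph with a difference below 0 turned positive, namely APH1A, APH1B, MIB1, POFUT1, KTELC1, FURIN and NCOR1.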

How the data were processed

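RNA of 1 pubertal and 1 infant Sertoli cell culture was labelled with Cy3 and hybridised to an array of human design annotated on hg18, per the labels' protocols and the file headers. The deposited intensity values come from Agilent Feature Extraction 10.5.1.1 (the submitters' processing notes), with which the authors subtracted background and removed spatial trend, per the file headers. Both arrays lay on 1 slide with 1 scan, so neither separates the groups.

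Processed signals were put on the log2 scale, outlier spots were left out (96 pubertal, 91 infant), the array's 75th percentile over gene spots was subtracted, and spots of a probe were averaged. A probe counted as above background where at least 50% of its spots carried the flag for well above background, and a gene took the mean of such probes common to both arrays. Of the 60 probes of the 36 genes, 59 were usable and 48 were above background on both arrays, while 1 MAML1 probe was an outlier on the infant array. A gene above background on 1 array got a lower bound against the lowest signal above background of the other array (a level of -4.37 for the infant array). Called means at least 2-fold, and no test was possible with 1 array a group. The number of arrays limits the precision.

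The genes, the further pathway names and the marker lists were chosen with earlier results of these data known. All 36 names occur in the macaque RefSeq table of assembly T2T-MMU8v2.0. Probe positions were not used here. Alternatives were 3 other scalings, quantile and loess (span 0.3) normalization, normexp with an offset of 50 (limma 3.58.1 in R 4.3.3), 2 other filters, 2 other rules for probes, disturbed areas left out, and thresholds of 1.5- and 4-fold. Counting overlapping probes once was added after the data were seen. The gene and count steps were tested on simulated data. Every one of the 36 genes is described, and of the other pathway genes those at least 2-fold different were to be named. The others named were chosen after their values were seen. Of each marker list the first gene and the 2 largest differences in size are given, with further members chosen after their values were seen. Some results of the further pathway list are not reported here.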

Additional observations from a re-analysis of the deposited data

How the results depend on the processing

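Of the counts and medians over the Notch genes and the further pathway genes, 65 values under an alternative stayed within 1.5 times the reported count or within 0.20 of the reported median, and 15 did not. Some of the 65 could not move, so their number does not measure stability. Overlapping probes were counted once for the Notch genes only, and genes with 1 probe do not change under the other probe rules. With no filter or the weaker flag the Notch genes at least 2-fold higher went from 4 to 6, with HES5 and HEY1 added. The number of Notch genes at least 2-fold higher was 16 with scaling on spike-in probes and 8 past 1.5-fold. The number lower was 0 with scaling on spike-in probes, 5 past 1.5-fold and 0 past 4-fold. The median of the Notch genes was 1.06 and that of the further pathway genes 1.102 on the spike-in scale. The number of further genes higher was 21 on the spike-in scale and 6 past 1.5-fold. The number lower was 0 on the spike-in scale, 1 with the 75th percentile over probes above background, 0 with normexp, 1 with no filter on dim probes, 7 past 1.5-fold and 0 past 4-fold. The cause was not tested. No value of these genes past 2-fold turned its sign, but each lower difference was larger in size than the spike-in shift of 1.05. On the spike-in scale MFNG was at -0.18, NOTCH3 at -0.09, SEL1L at -0.08, ADAM10 at -0.04 and NEDD4 at -0.02, so little of the lower signal remained there.

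Over all genes the calls were 7038 higher and 113 lower on the spike-in scale (98.4% upward), 785 and 1305 with scaling on the median (37.6% upward), 553 and 568 with normexp and 2081 and 1485 with no filter, where 21495 genes were used, against 1042 and 900 (53.7% upward). Without the filter or with the weaker detection flag HES5 was at 3.46, HEY1 at 3.02 and MAML3 at -2.004. Leaving out disturbed areas, 1.38% of the spots, left the counts of Notch genes at 4 higher and 3 lower.

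No paired analysis was possible because each group has 1 array. Signals near the lowest value above background, 20.8 units pubertal and 18.5 infant, limit what can be said of DLL4, NOTCH1, HES2, MAML3 and DTX4.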

Other observations

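Genes outside the lists were looked up after the values above had been seen. Of the 8 further pathway names absent from the array, NEURL1, POGLUT1 and CIR1 are newer names of NEURL, KTELC1 and CIR, which the same list holds, and 4 others were present under older symbols outside the list. KAT2A and KAT2B, histone acetyltransferases that act as Notch coactivators, are there as GCN5L2, at 0.33 ± 0.20, and PCAF, at -1.46 ± 0.31 on 1 of 2 probes and -0.60 with normexp. BHLHE40 and BHLHE41, helix-loop-helix repressors, are there as BHLHB2, at -0.75 ± 0.20, and BHLHB3, at -0.96 ± 0.20. The values of BHLHB2 and BHLHB3 turned positive on the spike-in scale.

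The ID genes encode helix-loop-helix proteins without a DNA-binding part that bind other helix-loop-helix factors. ID4 was higher in the pubertal culture by 3.31 ± 0.21 and ID1 by 1.33 ± 0.20, ID3 differed by 0.82 ± 0.21 and ID2 by -0.48 ± 0.14, the latter positive on the spike-in scale. ID4 is also on the germ cell marker list used above. TLE6, a Groucho-related gene, was at 1.51 ± 0.28 on 1 of 2 probes, at 0.28 with no filter and 0.70 with normexp, and AES, a short Groucho protein, at -0.07 ± 0.12. EGFL7, a secreted endothelial protein described as a Notch antagonist, was at 1.40 ± 0.21. Of the 8 endothelial markers PECAM1 was at 1.43, VWF at 0.99, ESAM at 0.26 and ERG at -0.10, TEK was above background on the pubertal array only, and CDH5, KDR and TIE1 on neither. Their part in it was not tested.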
